A study of Mus musculus with 2 samples.

Results

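The nuclear genes of oxidative phosphorylation were followed in 2 spatial libraries of mouse pancreatic tumors. The members were all gene symbols in the feature list that start with Ndufa, Ndufb, Ndufc, Ndufs, Ndufv, Sdha, Sdhb, Sdhc, Sdhd, Uqcr, Cox4, Cox5, Cox6, Cox7, Cox8 or Atp5 and that reached at least 100 unique molecular identifiers (UMIs) over both libraries. All 84 symbols that fitted the names reached it, out of 19465 features. Grouped by name, 34 were put in complex I, 4 in complex II, 7 in complex III, 16 in complex IV and 13 in complex V, and 10 are assembly factors of complexes I and II. Complex IV here includes Ndufa4l2, a paralog of Ndufa4, and Cox7a2l, which helps to join complexes III and IV. None of the 84 is encoded in the mitochondrion, and 0 features were mitochondrial, so the mitochondrial subunits were not analysed here. The common subunit genes Cox4i1, Cox5a, Cox6b1 and Ndufa4 were not analysed here either.

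KPC is a pancreatic cancer line from genetically engineered mice that carry mutant Trp53 and Pdx1-Cre. Lines carrying a short hairpin RNA against Zeb1 (KPC-shZEB1) or the control vector (KPC-shV) after lentiviral infection were injected into the pancreas of mice, and both tumors are therefore allografts from 1 line. Per the study, the tissue came from gemcitabine-treated, immunocompetent mice, which the labels do not state. The study's methods give several strains and an age of 4 to 6 weeks for its mice together, without saying which strain carried these tumors. The study lists 2 tumors per group, there is 1 library per group here, and which tumor it covers is not stated in the sources used here. Each spot of a Visium CytAssist slide covers a patch of tissue wide enough for several cells, often of more than 1 type.

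Oxidative phosphorylation oxidises reducing equivalents from the tricarboxylic acid (TCA) cycle in the inner mitochondrial membrane. Complex I takes electrons from NADH and complex II, succinate dehydrogenase, takes them from succinate, which makes complex II part of the TCA cycle too. Complex III passes them to cytochrome c, complex IV to oxygen, and complex V, the ATP synthase, uses the resulting proton gradient to make ATP. Most subunits are encoded in the nucleus, and several complex IV subunits exist as pairs of isoforms, of which one is common to most tissues and the other is known from muscle or from tissue short of oxygen. Under low oxygen, hypoxia-inducible factors are known to raise glycolysis genes and some isoform genes of the chain.

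There were 2220 spots with 140493626 UMIs in the library labelled KPC-shZEB1 and 3552 spots with 172059528 UMIs in that labelled KPC-shV, at medians of 59957.5 and 52544.5 UMIs per spot. The 1718 barcodes that both libraries share name positions of the slide design. Levels are UMIs per 1000000 UMIs (CPM). Spots in which the acinar list, the digestive enzyme genes of normal pancreas, took over 20% of the UMIs were called acinar-rich, and they held 764 and 244 spots at 5000 UMIs or more in the 2 libraries. Outside them, spots of at least 5000 UMIs over the 90th percentile of a marker list, pooled over both libraries, were called neutrophil-rich, hypoxic or proliferating, in that order of priority. The library labelled KPC-shZEB1 had 23, 18 and 157 such spots and the library labelled KPC-shV had 435, 163 and 285, and the remaining 1254 and 2240 were the other spots. No member is in any of these lists. Zeb1 itself stood at 15.6 CPM in the library labelled KPC-shZEB1 against 12.7 CPM in that labelled KPC-shV outside acinar-rich spots, a log2 ratio of 0.29 (0.19 to 0.39), so the targeted gene went against the label there, while over all spots it stood at 10.8 and 12.4 CPM (-0.20, -0.30 to -0.11). Libraries are therefore named by their labels throughout. With 1 library per group there was no test. A single value in parentheses after levels is their log2 ratio, and a range is the 95% interval of a ratio or share (exact conditional binomial or exact binomial), which covers nothing but counting error, and spots are not replicates.

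The promoters of the members were read because genes of the chain are known to share sites for nuclear respiratory factor 1 (NRF1) and for ETS family factors. RefSeq windows of GRCm38.p6, from 250 bases before to 50 bases after the start, matched 69 of the 84 members, and 27025 genes had a window in all. Each motif was searched on both strands. The letters GCGCATG, which make most of the known NRF1 site, were found in 13 of the 69 members (18.8%) and in 4.41% of all genes with a window. The ETS letters CCGGAAG were found in 19 members (27.5%) and in 9.93% of all genes with a window. The letters ACGTG, a form of the hypoxia-inducible factor core, were found in 16 members (23.2%) and in 21.8% of all genes with a window. They are a string inside neither of the other motifs, and the form GCGTG was not searched. These are letter matches, not sites shown to be bound. The genes with a window were not limited to genes read in these libraries, nor matched to the members for level or base content. Below are the 250 bases before the start of Cox5b, Cox6a1 and Sdhb, shown because these genes differed between the libraries or between classes and hold the NRF1 letters, and of Cox7a1, shown because its level stood apart in hypoxic spots. They lie at chr1:36691237-36691486 on the plus strand, chr5:115348959-115349208 on the minus strand, chr4:140961021-140961270 on the plus strand and chr7:30183921-30184170 on the plus strand. Capitals mark matches.
Cox5b: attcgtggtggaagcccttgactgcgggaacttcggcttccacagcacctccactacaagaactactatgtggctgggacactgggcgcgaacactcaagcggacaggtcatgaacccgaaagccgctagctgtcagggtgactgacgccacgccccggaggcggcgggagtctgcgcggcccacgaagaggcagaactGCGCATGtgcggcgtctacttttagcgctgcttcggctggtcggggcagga
Cox6a1: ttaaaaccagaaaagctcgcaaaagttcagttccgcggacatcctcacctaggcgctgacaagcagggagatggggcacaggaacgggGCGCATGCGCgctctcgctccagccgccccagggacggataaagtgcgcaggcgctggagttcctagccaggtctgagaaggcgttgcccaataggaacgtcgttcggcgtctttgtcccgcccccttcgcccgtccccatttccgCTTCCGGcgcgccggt
Sdhb: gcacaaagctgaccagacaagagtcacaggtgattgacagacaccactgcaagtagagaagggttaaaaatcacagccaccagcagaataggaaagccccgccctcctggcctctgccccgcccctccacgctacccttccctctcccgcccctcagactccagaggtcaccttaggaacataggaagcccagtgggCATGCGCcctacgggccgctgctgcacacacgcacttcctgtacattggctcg
Cox7a1: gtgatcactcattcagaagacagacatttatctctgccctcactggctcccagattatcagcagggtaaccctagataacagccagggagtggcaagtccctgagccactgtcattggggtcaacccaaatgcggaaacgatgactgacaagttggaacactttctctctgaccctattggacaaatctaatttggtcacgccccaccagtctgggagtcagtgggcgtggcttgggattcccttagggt
In Cox5b the capitals are the NRF1 letters, and in Sdhb they are the NRF1 letters read on the opposite strand. In Cox6a1 both readings overlap in a single run, and the second run, close to the start, is the ETS letters on the opposite strand. The bases printed for Cox7a1 hold none of the 3 motifs as searched, although they hold GCGTG. The 50 bases after its start, not printed here, hold the letters ACGTG, and Cox7a1 is among the 16 members counted. Those after the start of Sdhb hold the ETS letters.

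Over all spots, the members summed to 13456.5 CPM in the library labelled KPC-shZEB1 against 16246.9 CPM in that labelled KPC-shV, giving a log2 ratio of -0.27 (-0.27 to -0.27). Acinar UMIs enter that total, and among 15358 genes reaching 100 UMIs in each library the median log2 ratio was -0.48. With the acinar list left out of the total the same ratio was 0.11, so the direction over all spots turned with the denominator. Of the 83 members with enough UMIs, 20 were lower by a log2 ratio of 0.5 or more, where 48.0% of all genes were, and 0 were higher, where 6.04% of all genes were. The comparison outside acinar-rich spots, with an all-gene median of -0.02, is the one described from here on.

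Outside acinar-rich spots the members took a slightly larger share of the RNA in the library labelled KPC-shZEB1, and the surplus was uneven over the subunits. They summed to 18693 CPM there and 16642.9 CPM in that labelled KPC-shV, giving a log2 ratio of 0.17 (0.16 to 0.17). Of 81 members reaching 100 UMIs in each library, 56 had a ratio above 0, where 48.4% of all genes did, and their median was 0.07. Past a log2 ratio of 0.5, 6 members were higher, against 13.8% of all genes, and 3 were lower, against 9.33%. So fewer members than genes in general stood past that fold. Fewer cells of a type and less RNA per cell cannot be told apart in such sums.

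Complex I, the NADH dehydrogenase, summed to 6450.55 CPM in the library labelled KPC-shZEB1 against 5837.74 CPM in that labelled KPC-shV, giving a log2 ratio of 0.14 (0.14 to 0.15). Its 34 members ran from -0.61 to 0.55, with 23 above 0. Ndufb9, an accessory subunit of the membrane arm, stood at 382 and 262 CPM, a log2 ratio of 0.55 (0.53 to 0.57). Ndufb10, of the same arm, stood at 302 and 212 CPM, a log2 ratio of 0.51 (0.48 to 0.53). Both were the only complex I members past 0.5 upwards. Ndufa7 was the only one past it downwards, at 26.6 and 40.4 CPM and -0.61 (-0.68 to -0.54). The core subunits that carry electrons lay closer to 0. Ndufs1, which holds iron-sulfur clusters, stood at 72.8 and 80.5 CPM (-0.14), and Ndufv1, which binds NADH, at 210 and 188 CPM (0.16).

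Complex II summed to 988 and 834 CPM, a log2 ratio of 0.24 (0.23 to 0.26), in the libraries labelled KPC-shZEB1 and KPC-shV. Sdhb, its iron-sulfur subunit, stood at 496 and 390 CPM, a log2 ratio of 0.35 (0.33 to 0.36). Sdha, the subunit that oxidises succinate, stood at 159 and 133 CPM (0.26), and the membrane anchor Sdhd at 196 and 163 CPM (0.27). The other anchor, Sdhc, ran the opposite way at 137 and 148 CPM (-0.12, -0.15 to -0.08). Subunits of a single enzyme therefore differed in sign.

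Complex III summed to 1818.58 and 1662.13 CPM, a log2 ratio of 0.13 (0.12 to 0.14). Its 7 members ran from -0.22 for Uqcrfs1, the Rieske iron-sulfur protein at 136 and 159 CPM, to 0.51 for Uqcrb, a small subunit at 119 and 83.7 CPM. Uqcrc1, a core subunit, was nearly level at 261 and 251 CPM (0.06). Complex III was thus higher in sum with its Rieske protein lower.

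Complex IV, cytochrome c oxidase, had the widest spread. It summed to 3695.76 CPM in the library labelled KPC-shZEB1 against 3043.5 CPM in that labelled KPC-shV, giving a log2 ratio of 0.28 (0.27 to 0.29), but the median of its 13 tested members was 0.02. Cox5b stood at 953 and 607 CPM, a log2 ratio of 0.65 (0.64 to 0.66). Cox6c stood at 789 and 534 CPM, a log2 ratio of 0.56 (0.55 to 0.58). Both genes made up most of the surplus of the complex. Without them the other 14 members summed to 1953.22 and 1901.82 CPM, a log2 ratio of 0.04 (0.03 to 0.05). Cox5b alone made 16.9% and Cox6c 12.4% of the summed difference of all 84 members, whose ratio was 0.13 without both. Cox6a1, which shares the NRF1 letters with Cox5b, ran the opposite way at 477 and 555 CPM (-0.22, -0.24 to -0.20).

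The isoform genes of complex IV were read at low levels. Ndufa4l2, a paralog of the subunit gene Ndufa4 and known as a target of hypoxia-inducible factors, stood at 13.4 CPM in the library labelled KPC-shZEB1 against 24.9 CPM in that labelled KPC-shV, giving a log2 ratio of -0.89 (-0.99 to -0.79). Cox7a1, known from heart and skeletal muscle, stood at 9.25 and 13.2 CPM (-0.51, -0.63 to -0.39). Cox4i2, an isoform known from lung and vessel wall, lay just inside the fold at 3.37 and 4.75 CPM (-0.50, -0.70 to -0.30). These 3 were lower, while Cox6a2, another muscle isoform, was higher at 2.35 and 1.31 CPM (0.85, 0.56 to 1.13). The striated muscle list moved with Cox7a1, at a log2 ratio of -0.75, and the list of smooth muscle and pericyte genes stood at -0.13. Their part in these results was not tested. Cox7b2, Cox8b and Cox8c had under 100 UMIs in a library and were not tested.

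Complex V summed to 5309.53 and 4861.57 CPM, a log2 ratio of 0.13 (0.12 to 0.13), and none of its 13 members passed 0.5. The catalytic subunit Atp5b and its partner Atp5a1 were nearly level. Atp5a1 stood at 471 and 474 CPM (-0.01, -0.03 to 0.01) and Atp5b at 646 and 669 CPM (-0.05, -0.06 to -0.04). The largest surplus was that of the small subunits Atp5e and Atp5l, while other small subunits differed less or were lower. Atp5e, of the central stalk, stood at 1019 and 802 CPM (0.35), and Atp5l, of the membrane part, at 623 and 474 CPM (0.40). Atp5d, also of the central stalk, was lower at 220 and 258 CPM (-0.23). The 10 assembly factors summed to 431 and 404 CPM, a log2 ratio of 0.09 (0.07 to 0.11), with none past 0.5.

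**Figure D1:**
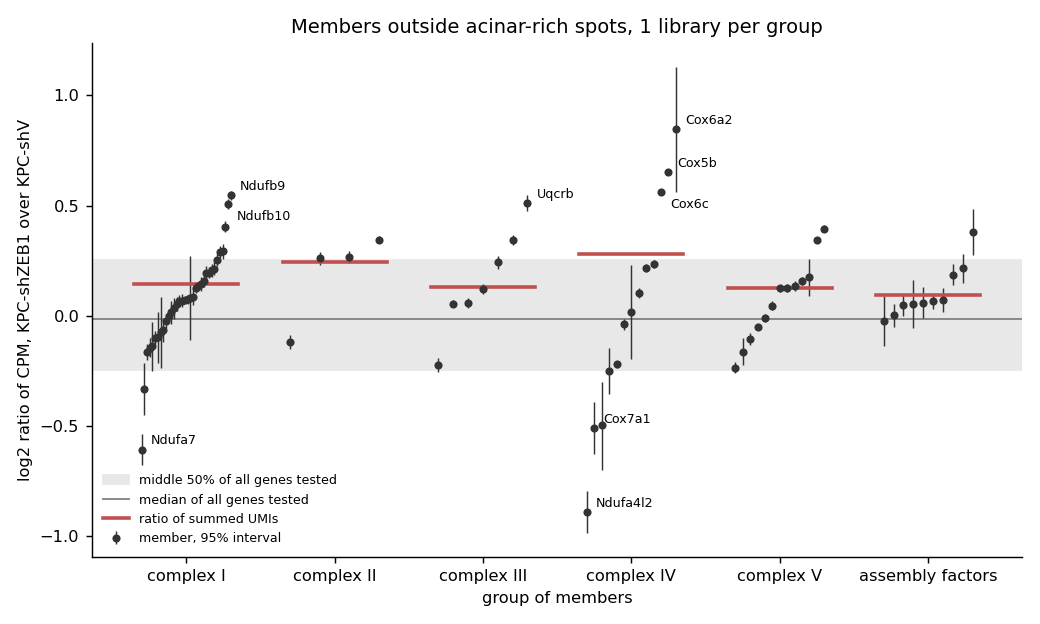
Log2 ratio of CPM (KPC-shZEB1 over KPC-shV, vertical axis) outside acinar-rich spots for each tested member, grouped by respiratory complex, with 95% counting intervals as bars. Red lines give the ratio of the summed UMIs of each complex, and the grey band and line give the middle 50% (-0.25 to 0.25) and the median of all genes tested. Most members lie within the band, with Cox5b, Cox6c, Ndufb9, Ndufb10, Uqcrb and Cox6a2 past 0.5 and Ndufa4l2, Ndufa7 and Cox7a1 past -0.5.

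The genes that feed the chain were compared outside acinar-rich spots too. The 16 TCA cycle genes summed to 2407.73 and 2245.09 CPM, a log2 ratio of 0.10 (0.09 to 0.11), with 12 of 16 above 0 and none past 0.5, from -0.33 for Mdh2 to 0.45 for Fh1. Glycolysis genes ran the opposite way, at 4068.14 and 6121.51 CPM and a log2 ratio of -0.59 (-0.60 to -0.58). Of their 16 rows 7 were lower by 0.5 or more and 2 were higher. Slc2a1, the glucose transporter, stood at 78.0 and 287 CPM (-1.88) and Slc16a3, the lactate exporter, at -1.39, while Aldoc stood at 0.77 and Gapdh at 0.55. Assembly factors outside the naming rule, 26 genes, summed to a log2 ratio of 0.05, and the regulators of mitochondrial genes to -0.27. Among these regulators Ppargc1b, a coactivator of mitochondrial genes, stood at 0.95, Tfb2m, a mitochondrial transcription factor, at 0.55, Yy1 at -0.47 and Myc at -0.49. With the acinar list left out of the total, the library labelled KPC-shZEB1 had the higher member sum by a log2 ratio of 0.20 in hypoxic, 0.19 in neutrophil-rich, 0.08 in proliferating and 0.18 in other spots. In acinar-rich spots the direction turned with the denominator, from 0.38 without the acinar list to -0.23 (5374.18 and 6290.86 CPM) with all UMIs. The same members stood at the ends in several classes. Cox6c came next to Cox5b (882 and 506 CPM, 0.80) in hypoxic spots at 672 and 398 CPM (0.76), and was the highest of the members with 100 UMIs in both pools in neutrophil-rich (831 and 415 CPM, 1.003) and proliferating spots (921 and 605 CPM, 0.61). Uqcrfs1 was among the 3 lowest in all 3, at -0.42, -0.33 and -0.29. Marker lists of other cell types also differed between the libraries outside acinar-rich spots, with fibroblast genes at 0.31, macrophage genes at 0.64 and tumor epithelium genes at -0.13. Their part in the result was not tested.

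**Figure D2:**
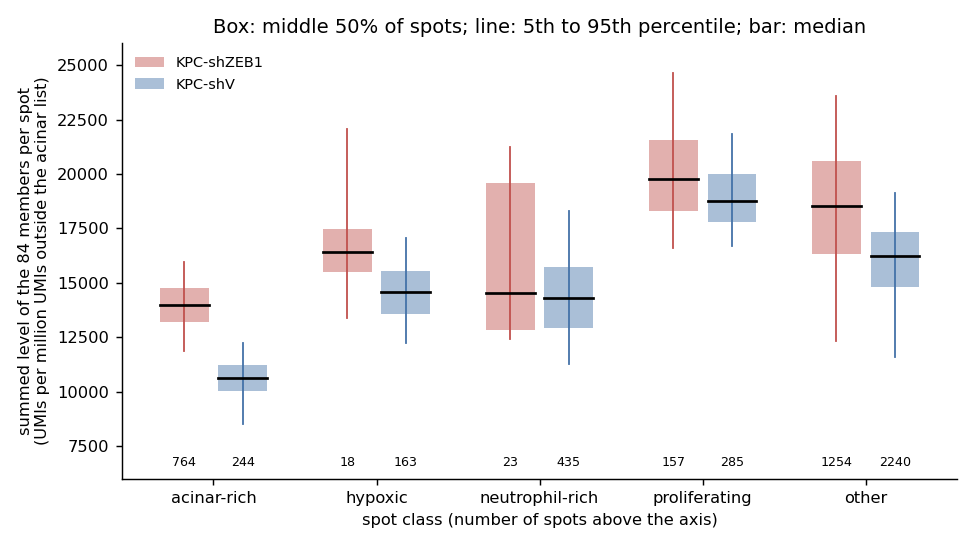
Summed level of the 84 members per spot, in UMIs per 1000000 UMIs outside the acinar list (vertical axis, not starting at 0), in the 5 classes of spots of each library. Boxes hold the middle 50% of spots, thin lines run from the 5th to the 95th percentile, black bars are medians and the number of spots stands above the axis. Medians in acinar-rich spots are lowest (13961.3 and 10606.9) and those in proliferating spots highest (19775.9 and 18760.1) in the libraries labelled KPC-shZEB1 and KPC-shV.

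Classes of spots were compared within each library, with the acinar list taken out of the total, so that both libraries give a separate reading. The list holds 24 measured genes, and all other genes stay in that total. In acinar-rich spots the respiratory genes took a lower share of it than in the other spots. The members summed to 13943.2 CPM in acinar-rich and 18686.9 CPM in other spots labelled KPC-shZEB1, a log2 ratio of -0.42 (-0.43 to -0.42), and to 10720 and 16537.1 CPM in those labelled KPC-shV, -0.63 (-0.64 to -0.61). Genes in general were lower there too, with all-gene medians of -0.90 and -0.56. Against those medians the member sum was less low in the library labelled KPC-shZEB1 and slightly lower in that labelled KPC-shV. Of 77 members tested, 33 were lower by 0.5 or more in both libraries, where 49.4% of all genes were, and 56 were below 0 in both, where 68.0% were. The members thus stood past the fold no more often than other genes.

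The 2 members higher by 0.5 or more in both libraries, where 9.61% of all genes were, were Atp5g1 and Ndufv3. Atp5g1, one of the genes for the rotating c subunit of ATP synthase, stood at 39.9 CPM in acinar-rich and 20.7 CPM in other spots labelled KPC-shZEB1 (0.95, 0.83 to 1.07), and at 39.6 and 19.2 CPM in those labelled KPC-shV (1.05, 0.80 to 1.28). Ndufv3, an accessory subunit beside the NADH site, stood at 274 and 161 CPM (0.76, 0.72 to 0.81) and at 323 and 170 CPM (0.93, 0.84 to 1.01). With all UMIs in the denominator both turned negative in the library labelled KPC-shZEB1, at -0.42 and -0.60. In the library labelled KPC-shZEB1, Ndufb9 was the next highest at 611 and 381 CPM (0.68) and Sdhaf2 and Ndufs3, a core subunit of complex I, were among the lowest at 17.7 and 51.9 CPM (-1.55) and 20.1 and 57.3 CPM (-1.51). In the library labelled KPC-shV, Ndufb6 was the next highest at 227 and 144 CPM (0.66).

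Complex I was the least lowered, at -0.20 (-0.21 to -0.19) and -0.39 (-0.41 to -0.37) in the libraries labelled KPC-shZEB1 and KPC-shV. Complex II stood at -0.30 and -0.46, complex III at -0.38 and -0.66, complex IV at -0.68 and -0.70 and complex V at -0.57 and -0.94. Within complex IV, Cox7a2, the common isoform of its subunit, stood at 214 and 477 CPM (-1.15) and at 87.0 and 391 CPM (-2.17). Within complex V, the catalytic subunit Atp5b stood at 319 and 647 CPM (-1.02) and at 194 and 658 CPM (-1.76). Its partner Atp5a1 differed far less, at 451 and 468 CPM (-0.05) and 344 and 475 CPM (-0.47). TCA cycle genes were lower by -0.81 and -0.96 and glycolysis genes by -2.10 and -2.53. The fibroblast list stood at -1.04 in acinar-rich spots labelled KPC-shZEB1 and at 0.58 in those labelled KPC-shV, the macrophage list at -1.40 and 0.35, and the tumor epithelium list at -3.50 and -3.00. Median depth was 66359.5 and 24732.5 UMIs. The part of these lists and of depth was not tested.

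**Figure D3:**
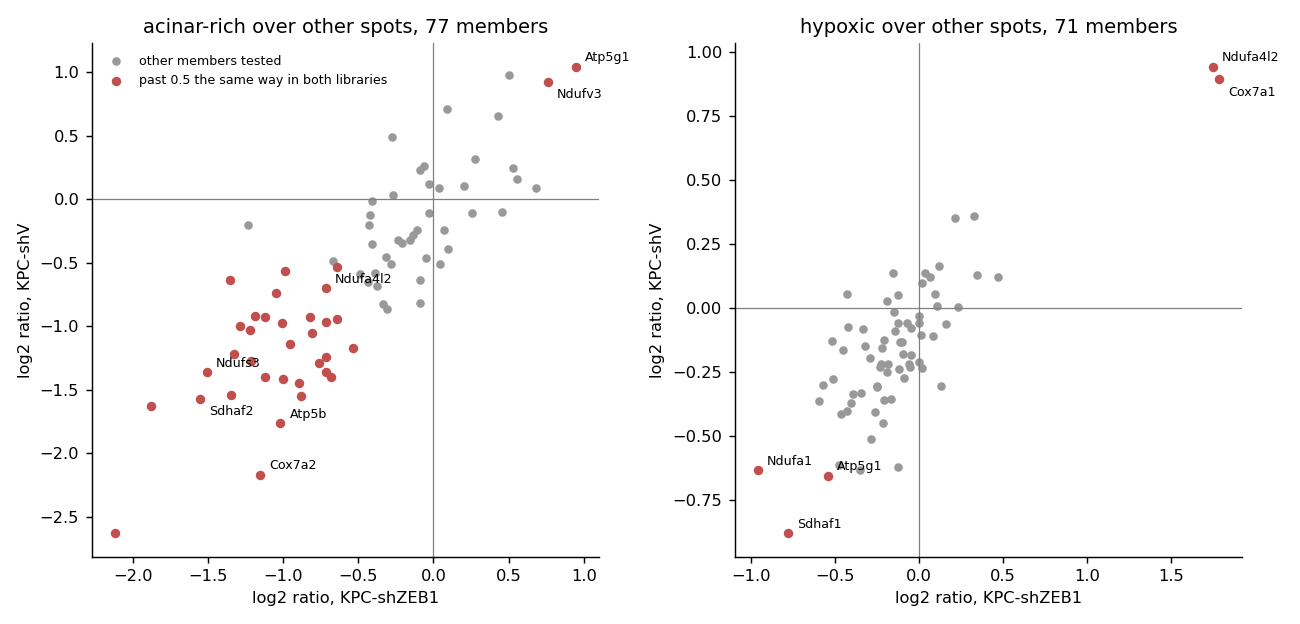
Log2 ratio of each tested member in the library labelled KPC-shZEB1 (horizontal axis) and KPC-shV (vertical axis), for acinar-rich over other spots (left) and hypoxic over other spots (right). Red points are past 0.5 in the same direction in both libraries. Atp5g1 and Ndufv3 stand highest on the left, and Ndufa4l2 and Cox7a1 stand apart at the top right of the right panel.

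In hypoxic spots glycolysis genes were far higher, the respiratory genes were slightly lower in sum, and Ndufa4l2 and Cox7a1 of complex IV were higher. The members summed to 16846.6 CPM in hypoxic and 18686.9 CPM in other spots labelled KPC-shZEB1, a log2 ratio of -0.15 (-0.17 to -0.13), and to 14663.3 and 16537.1 CPM in those labelled KPC-shV, -0.17 (-0.18 to -0.16). The all-gene medians were -0.02 and -0.06. Of 71 members tested, 47 were below 0 in both libraries, where 41.6% of all genes were. Glycolysis genes, none of which defined the class, were higher by 1.49 and 1.27. TCA cycle genes stood at -0.28 and -0.22, somewhat lower than the member sum.

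Of the 71 members tested, Ndufa4l2 and Cox7a1 were the 2 higher by 0.5 or more in both libraries, where 6.82% of all genes were, so members stood past that fold no more often than other genes. Ndufa4l2 stood at 44.9 CPM in hypoxic and 13.3 CPM in other spots labelled KPC-shZEB1 (1.75, 1.26 to 2.20, on 41 UMIs), and at 48.0 and 24.98 CPM in those labelled KPC-shV (0.94, 0.78 to 1.10). Cox7a1 stood at 30.7 and 8.87 CPM (1.79, 1.19 to 2.33, on 28 UMIs) and at 21.8 and 11.7 CPM (0.89, 0.65 to 1.13). The hypoxic levels of Ndufa4l2 were close in both libraries, while its levels in the other spots were not. Among Cox7a1 and Cox7a2 UMIs together, which read the 2 isoforms of a single subunit, Cox7a1 took 6.91% (4.64% to 9.84%) in hypoxic and 1.83% (1.69% to 1.97%) in other spots labelled KPC-shZEB1. In those labelled KPC-shV it took 5.72% (4.90% to 6.63%) and 2.91% (2.76% to 3.06%). The common isoform Cox7a2 stood at 413 and 477 CPM (-0.21) and 359 and 391 CPM (-0.13). Other isoform genes of complex IV had under 100 UMIs in the hypoxic spots of both libraries together and were not counted. In hypoxic spots labelled KPC-shZEB1, Cox4i2 and Cox6b2, an isoform known from testis, had 1 UMI each and Cox6a2 had 0. In those labelled KPC-shV, Cox4i2 stood at 6.30 and 4.81 CPM (0.39, -0.066 to 0.81), Cox6b2 at 2.10 and 3.48 CPM (-0.73, -1.55 to -0.016) and Cox6a2 at 1.18 and 1.30 CPM (-0.14, -1.29 to 0.82). Among these, Cox6b2 alone had an interval that leaves out 0, on the lower side. The striated muscle list was lower in the same spots, at -0.45 and -0.65, and so was the list of smooth muscle and pericyte genes, at -0.88 and -1.0005.

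Sdhaf1, Atp5g1 and Ndufa1 were the 3 members lower by 0.5 or more in both libraries, where 8.45% of all genes were. Sdhaf1, which helps to build the iron-sulfur subunit of complex II, stood at 20.8 CPM in hypoxic and 35.7 CPM in other spots labelled KPC-shZEB1 (-0.78, -1.51 to -0.13, on 19 UMIs) and at 17.4 and 32.1 CPM in those labelled KPC-shV (-0.88, -1.14 to -0.63). Ndufa1, a small complex I subunit, stood at 90.9 and 176 CPM (-0.95, -1.28 to -0.64) and at 101 and 156 CPM (-0.63, -0.74 to -0.53). Atp5g1 stood at 14.2 and 20.7 CPM (-0.54, -1.45 to 0.24) on 13 UMIs, an interval that includes 0, and at 12.2 and 19.2 CPM (-0.65, -0.97 to -0.35). Among members with 100 UMIs in each pool, Atp5k of complex V was the lowest in hypoxic spots labelled KPC-shZEB1, at 263 and 396 CPM (-0.59, -0.78 to -0.41), and it stood at 299.5 and 385 CPM (-0.36) in those labelled KPC-shV.

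Complex II differed most among the 5 complexes in hypoxic spots, at -0.28 (-0.38 to -0.17) and -0.39 (-0.43 to -0.35). The other 4 lay between -0.15 and -0.13 in the library labelled KPC-shZEB1 and between -0.17 and -0.14 in the library labelled KPC-shV. The interval of complex II was apart from theirs in the library labelled KPC-shV alone. Sdhb, on which Sdhaf1 acts, stood at 390 and 497 CPM (-0.35, -0.51 to -0.20) and at 258 and 400 CPM (-0.63, -0.70 to -0.57), and Sdha at 127 and 161 CPM (-0.35) and 107 and 135 CPM (-0.33). Sdhc was nearly level (-0.04 and -0.08). Other lists moved in these spots as well, with tumor epithelium genes at 0.78 and 0.56 and fibroblast genes at -1.77 and -2.45. Their part was not tested. With the list level of hypoxic spots set at the 80th percentile, the member sum differed by only -0.02 and -0.03.

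**Figure D4:**
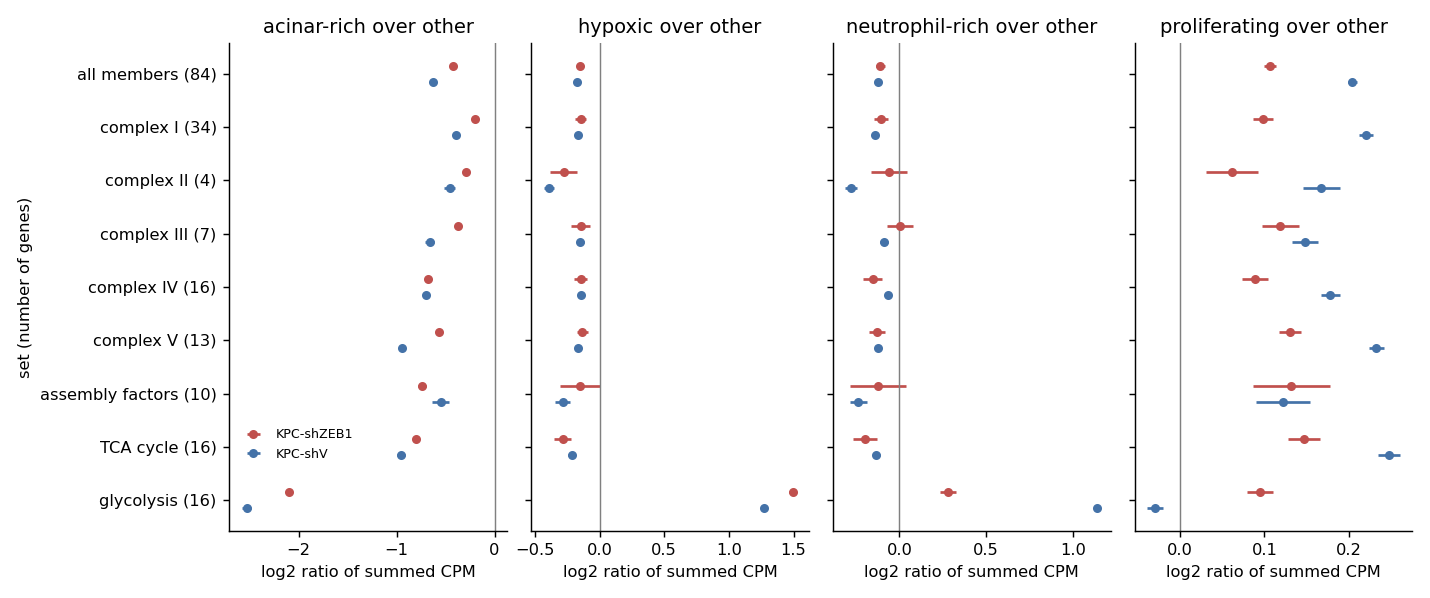
Log2 ratio of summed CPM, class over other spots (horizontal axis, with its own scale in each panel), for all members, complexes I to V, the assembly factors, TCA cycle genes and glycolysis genes (vertical axis), in the libraries labelled KPC-shZEB1 (red) and KPC-shV (blue) with 95% counting intervals. All sets lie below 0 in acinar-rich spots, the complexes lie slightly below 0 in hypoxic spots with glycolysis at 1.49 and 1.27, and all complexes lie above 0 in proliferating spots.

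In neutrophil-rich spots the members differed little. They summed to 17316.3 CPM in neutrophil-rich and 18686.9 CPM in other spots labelled KPC-shZEB1, a log2 ratio of -0.11 (-0.13 to -0.09), and to 15156.8 and 16537.1 CPM in those labelled KPC-shV, -0.13 (-0.13 to -0.12). Of 76 members tested, 48 were below 0 in both libraries, where 33.2% of all genes were. None was past 0.5 in the same direction in both, where 2.32% of all genes were higher and 1.64% lower. Sdhb separated the libraries, at 491 and 497 CPM (-0.02, -0.16 to 0.13) in that labelled KPC-shZEB1 and 271 and 400 CPM (-0.56, -0.62 to -0.51) in that labelled KPC-shV. Cox7a1 stood at 21.3 and 11.7 CPM (0.86, 0.65 to 1.06) for KPC-shV, and at 12.5 and 8.87 CPM (0.50, -0.57 to 1.39, on 10 UMIs) for KPC-shZEB1. Ndufa4l2 was not among the 3 highest members for KPC-shV, of which the third, Cox7a2l, stood at 0.24. In single spots the median member sum was 14531.6 CPM against 18506.8 CPM in other spots labelled KPC-shZEB1 and 14288.9 against 16217.5 CPM in those labelled KPC-shV, a wider gap than in the pooled sums, where deeper spots weigh more. The hypoxia list stood at 0.73 and 1.90 and the glycolysis list at 0.28 and 1.14 in these spots, so neutrophil-rich spots were also high in hypoxia genes, more so in the library labelled KPC-shV. Their median depth was 29084 and 21728 UMIs, below that of the other spots at 58951 and 59828 UMIs. The macrophage list stood at 0.45 and -1.76. Their part in these values was not tested.

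In proliferating spots the respiratory genes were slightly higher. The members summed to 20119.2 CPM in proliferating and 18686.9 CPM in other spots labelled KPC-shZEB1, a log2 ratio of 0.11 (0.10 to 0.11), and to 19048.7 and 16537.1 CPM in those labelled KPC-shV, 0.20 (0.20 to 0.21). Of 79 members tested, 59 were above 0 in both libraries, where 35.8% of all genes were, and 6 were below 0 in both, where 31.6% were. None was past 0.5 in the same direction in both, where 2.36% of all genes were higher and 5.68% lower. Complex V stood at 0.13 (0.12 to 0.14) and 0.23 (0.22 to 0.24), complex I at 0.10 and 0.22, and complex II at 0.06 and 0.17. Atp5b stood at 698 and 647 CPM (0.11) and at 782 and 658 CPM (0.25), and Uqcr10, a small subunit of complex III, at 371 and 294 CPM (0.34) and 303 and 233 CPM (0.38). All 16 TCA cycle genes were above 0 in both libraries, and their sum stood at 0.15 and 0.25. The highest were Atp5g1 in the library labelled KPC-shZEB1, at 29.3 and 20.7 CPM (0.50, 0.31 to 0.69), and Ndufv2, a core subunit of complex I, in the library labelled KPC-shV, at 222 and 160 CPM (0.48, 0.43 to 0.52). Ndufv3 was among the 6 on the other side, at 139 and 161 CPM (-0.21, -0.30 to -0.13) and 138 and 170 CPM (-0.30, -0.36 to -0.25). Ndufa4l2 stood at 12.1 and 13.3 CPM (-0.14, -0.43 to 0.14) and at 15.6 and 24.98 CPM (-0.68, -0.84 to -0.51). The fibroblast list was lower in these spots, at -0.51 and -1.66, as was the macrophage list, at -0.66 and -1.11, while the tumor epithelium list stood at -0.04 and 0.13. Median depth was 58348 and 76040 UMIs, above the other spots in the library labelled KPC-shV. The part of these lists and of depth was not tested.

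Spots outside the acinar-rich class with at least 20000 UMIs were also put into 10 bins of each list, with limits common to both libraries. Along the proliferation list the member sum went from 13946.9 CPM in the first to 20140.5 CPM in the last bin of the library labelled KPC-shZEB1 (a log2 ratio of 0.53) and from 14265.7 to 19168.1 CPM in the library labelled KPC-shV (0.43). In the library labelled KPC-shZEB1 most of the rise was reached by bin 2 (18045.8 CPM), and bins 5 and 8 lay below the bin before them. In the library labelled KPC-shV each bin was higher than the bin before it. Median depth also went from 34969 UMIs in the first to 76075 UMIs in the last bin there, and glycolysis genes from 9571.84 to 5268.18 CPM. For KPC-shZEB1 median depth went from 46352 to 59204 UMIs and glycolysis genes from 2812.73 to 4283.3 CPM. Along the hypoxia list the sum peaked in bin 7 in both libraries, at 19714.5 and 17632.8 CPM, and in the last bin it was 17547.8 CPM over 25 spots and 14835.5 CPM over 383 spots. The last bin over bin 7 was -0.17 and -0.25, and for complex II alone -0.23 and -0.39. Bin 7 was picked as the highest, so that ratio of the member sum could only be negative. Median depth in bin 7 and the last bin was 61147 and 50827 UMIs for KPC-shZEB1, and 68167 and 40893 UMIs for KPC-shV. The last bin over the first was 0.01 (from 17380.7 CPM) in the library labelled KPC-shZEB1, which was nearly level end to end. It was -0.21 in the library labelled KPC-shV, and for complex II alone -0.09 and -0.48. Glycolysis genes did not turn, and the last bin over bin 7 stood at 1.13 and 1.17. Along the neutrophil list the first and last bins differed little, at 20041.9 and 18423 CPM and at 16872.2 and 15995.3 CPM. The library labelled KPC-shZEB1 was higher in 10 of 10 hypoxia bins, 10 of 10 neutrophil bins and 9 of 10 proliferation bins. The part of depth and of other lists in these bins was not tested.

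**Figure D5:**
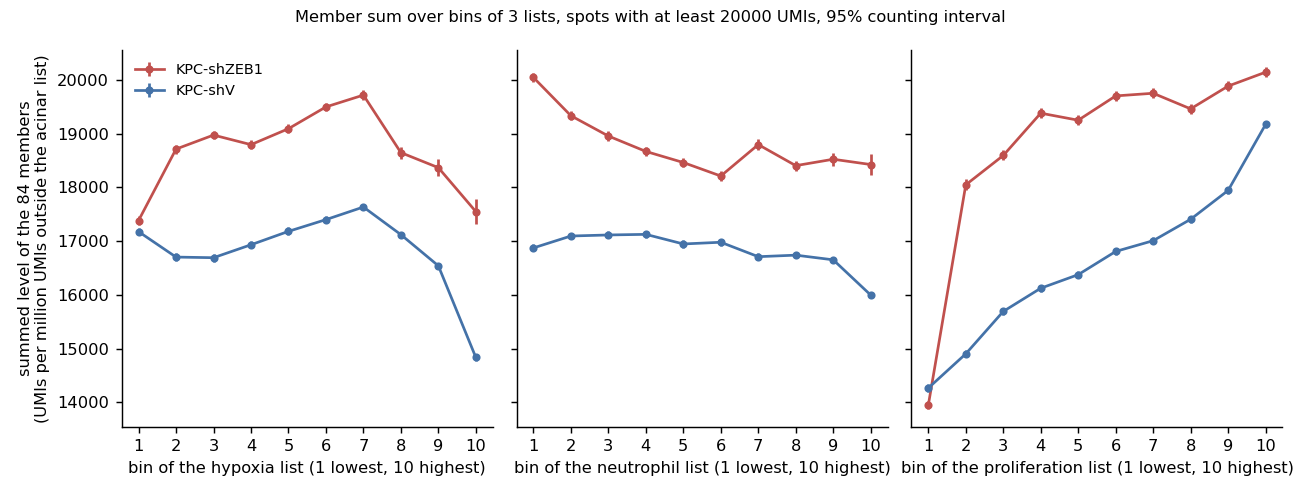
Summed CPM of the 84 members (vertical axis) in 10 bins of the hypoxia, neutrophil and proliferation lists (horizontal axis, lowest to highest list level) in both libraries, for spots of at least 20000 UMIs outside the acinar-rich class. Points are pools of spots of 1 library with 95% counting intervals, and the vertical axis does not start at 0. The hypoxia panel peaks at bin 7 and the neutrophil panel spans less. The proliferation panel goes from 13946.9 to 20140.5 CPM, mostly by bin 2, for KPC-shZEB1 and steadily from 14265.7 to 19168.1 CPM for KPC-shV.

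Across single spots most members varied together. Over 1404 spots labelled KPC-shZEB1 and 2669 labelled KPC-shV, each of the 66 members of at least 20 CPM in both libraries was set against the sum of all others, and the median Pearson r was 0.37 and 0.31. These values describe spots that share a library and a depth, and the total UMIs of a spot themselves had an r of 0.20 and 0.53 with the member sum. Counting error lowers r more in members with few UMIs per spot, and members were not matched for level. Cox5b was the closest to the rest, with an r of 0.78 and 0.60, followed by Atp5b at 0.71 and 0.53 and Cox7a2 at 0.64 and 0.57. Ndufv3 was apart, with an r of -0.23 and -0.34, and Ndufa1 had -0.28 and 0.01. Ndufv3 thus ran against the other members across spots as it did in acinar-rich and proliferating spots. Between complexes, I and V had the highest r, 0.84 and 0.74. The member sum followed TCA cycle genes, with an r of 0.84 and 0.77, and the proliferation list, at 0.50 and 0.70. With glycolysis genes it had 0.20 and -0.21, and with the fibroblast list -0.66 and -0.45.

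Muscle isoforms were read as a share of the UMIs of their subunit pairs. Probes differ between genes, so a share is compared only between libraries and classes. Over all spots Cox7a1 took 1.87% (1.75% to 2.00%) of Cox7a1 and Cox7a2 UMIs in the library labelled KPC-shZEB1 and 3.17% (3.05% to 3.31%) in the library labelled KPC-shV. The highest share was in acinar-rich spots labelled KPC-shV, at 7.99% (5.42% to 11.3%), where Cox7a2 was low, against 1.59% (1.25% to 2.00%) in those labelled KPC-shZEB1. Cox6a2, the muscle isoform of Cox6a1, took 0.448% and 0.244% over all spots and at most 1.88% in any class. In hypoxic spots labelled KPC-shZEB1 there were 0 Cox6a2 among 318 UMIs of the pair, which allows a share of up to 1.15%. Cox8b took 0.480% and 0.358% of Cox8a and Cox8b UMIs over all spots.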

How the data were processed

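Frozen tumor tissue was read with Visium CytAssist probes. The authors used Space Ranger 2.0.1 and mm10 (per the labels), and what they deposited are unnormalized UMI counts for each gene in each spot. A probe count reads a short part of a transcript, so levels were not compared between genes, apart from sums and shares of sums. Those weigh each gene by the UMIs its probes gave. From the deposited counts, CPM, log2 ratios and intervals at the 95% level were computed with Python 3.11.15, numpy 2.4.6, scipy 1.17.1, pandas 2.3.3 and matplotlib 3.10.9, after a test on simulated data. Library comparisons over all spots and outside acinar-rich spots used all UMIs, and comparisons between or within classes and bins used the total without the acinar list. The class limits were 4878.6 CPM for hypoxia, 894.456 CPM for neutrophil and 2744.64 CPM for proliferation genes. Ratios were counted for genes reaching 100 UMIs in each library, or in class and other spots summed over both. The members named are, per comparison, the 3 highest and 3 lowest with 100 UMIs in each pool, the core subunits, the isoform pairs and the extremes of likeness, and of other lists the 2 highest and 2 lowest genes between libraries. Other members are named for their role or as part of a small count, after their values were seen, and 1 member that the rule names is not reported here. The members, lists and tests were chosen with earlier results of these data known. Of the fixed lists, Prss1 (acinar), Ero1a (hypoxia), Tpi1, Eno1 and Ldha (glycolysis) and Uqcc2, Cox11, Cox20 and Pet117 (assembly) were not used here. Gene positions came from GENCODE M21, matched for 84 of 84 members, and promoter windows from RefSeq. The alternatives were other denominators and scaling, the mean over spots, leaving out the highest spots, other limits for classes and depth, and the median over members. Images and spot positions were not used, no cell type makeup was estimated and no doublet caller was run, since a spot is a region.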

Additional observations from a re-analysis of the deposited data

Results flagged for a closer look

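Among the highest, lowest and core members of each class comparison, a few had opposite signs in the 2 libraries, with each counting interval leaving out 0. The remaining members were not screened for this. These differences were not tested, since each library is a single sample. Sdhb in acinar-rich over other spots stood at a log2 ratio of 0.10 (KPC-shZEB1) and -0.39 (KPC-shV). With all UMIs in the denominator the former was -1.27. Uqcrh, a small subunit of complex III, in hypoxic spots stood at 0.16 and -0.060. In neutrophil-rich spots Cox7a2l, which helps to join complexes III and IV, stood at -0.23 and 0.24, Sdhaf1 at 0.49 and -0.64, and Uqcr10 at 0.19 and -0.27. The neutrophil-rich class held 23 spots labelled KPC-shZEB1 and 435 labelled KPC-shV, and Sdhaf1 rested on 40 UMIs in the former.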

How the results depend on the processing

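No paired analysis was possible because each group has 1 library. Limits: each ratio between libraries compares 2 tissue sections, the hypoxic and neutrophil-rich classes of the library labelled KPC-shZEB1 hold 18 and 23 spots, and depth leaves members such as Cox4i2 with few UMIs there. The member sum over all spots (-0.27) turned to 0.11 with the total without the acinar list and 0.21 under median-of-ratios scaling, and stood at -0.10 averaged over the CPM of single spots, -0.30 without the top 5% of spots, -0.29 in spots with at least 20000 UMIs and -0.36 as the median of members. Outside acinar-rich spots (0.17) these gave 0.17, 0.18 and 0.23 in the same order, 0.16 in spots with at least 20000 UMIs and 0.071 as the median, and acinar limits of 5% and 40% gave 0.18 and 0.15. Between the libraries within classes, all UMIs in the denominator, an alternative chosen after seeing the data, gave -0.23 in acinar-rich spots (0.38 as reported), where acinar UMIs then fill the total, and 0.17 in other spots (0.18), with the other 3 classes within their intervals. In the pairs that follow, the library labelled KPC-shZEB1 stands first. Counts of members past 0.5 under these alternatives have no share of all genes beside them, since none was computed. They are therefore not read as a result about the members. For acinar-rich spots all UMIs in the denominator gave -1.79 and -1.39 and 70 members past 0.5 in both (35 as reported), because acinar UMIs then fill the total, and turned Atp5g1 to -0.42, Ndufb9 to -0.68 and Ndufv3 to -0.60 (KPC-shZEB1) and Ndufb6 to -0.11 in the library labelled KPC-shV, where the median of members was -0.58. For hypoxic spots the 80th percentile gave -0.022 and -0.031 with 3 members, the 90th percentile within each library -0.033 and -0.19 with 3 members (5 as reported), spots with at least 20000 UMIs -0.076 and -0.16, and the median -0.16 in the library labelled KPC-shV. For neutrophil-rich spots they gave -0.00080 and -0.024, -0.034 and -0.21, and -0.024 and -0.060, with 1 member past 0.5 under the 80th percentile and with 20000 UMIs (0 as reported), and Ndufs1 in the library labelled KPC-shZEB1 turned to 0.030 and 0.034 under the percentile settings. For proliferating spots the 80th percentile gave 0.18 in the library labelled KPC-shV and the medians were 0.12 and 0.19. Of 972 values for single members and smaller sets under alternatives, 79 had the opposite sign, of which 22 were over all spots, 73 were under 0.5 as reported, and 6 past it, which are those named. Apart from the stated denominator effect, the cause of these changes was not tested.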
